A study of Mus musculus with 11 samples.

Results

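Bone marrow stromal cells make the secreted and membrane proteins that hold blood stem cells in the marrow and that control the formation of osteoclasts, the cells that resorb bone. The 10 genes described here are Cxcl12, Kitl, Lepr, Angpt1, Vcam1, Il7 and Foxc1, which belong to the blood stem cell niche, and Csf1, Tnfsf11 and Tnfrsf11b, which act on the osteoclast lineage. They were taken by name from a count table of 28222 genes, in which all 10 were found, and all 10 passed the filter on low counts in each comparison below. The RNA came from cultured mouse cells labelled as mesenchymal stem cells (MSCs). All of them were grown at 2% O2 in αMEM with 10% FBS and 1% penicillin/streptomycin, and polyadenylated RNA was sequenced. There were 4 groups in 3 batches, named here A, B and C. Batch A held 4 libraries of young mice, batch B held 2 libraries of young and 2 of old mice, and batch C held 3 libraries of old mice, where young was 3 to 5 months and old 18 to 22 months. The strain and sex of the mice, the way the cells were isolated, and whether each library came from a different animal are not given in the sources used here, so the p-values below measure only the spread between these libraries, which may be technical. Totals per library ran from 11969336 to 20315934. At this depth the lowest level that can be read, set at 3 counts, stood for 0.156 to 0.253 CPM, the counts scaled to a common library total.

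In the marrow, CXCL12 is the chemokine that retains blood stem cells through the receptor CXCR4, and KITL (stem cell factor) maintains them through the receptor KIT. ANGPT1 signals through TEK, VCAM1 binds integrins on blood cells, and IL7 supports lymphoid precursors. LEPR marks the perivascular stromal cells in which these factors are most abundant in vivo, and FOXC1 is a transcription factor required for those cells. CSF1 keeps macrophages and osteoclast precursors alive through CSF1R. TNFSF11 (RANKL) drives these precursors into osteoclasts through TNFRSF11A (RANK), and TNFRSF11B (osteoprotegerin, OPG) is a secreted decoy receptor that binds RANKL.

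Levels of different genes were compared per kilobase of the longest annotated transcript, as the mean of the 4 group means. Csf1 and Cxcl12 were the most abundant members, at 301 and 280.0 CPM per kilobase. Vcam1 followed at 59.8, Tnfrsf11b at 53.2, Kitl at 19.3, Foxc1 at 10.8, Angpt1 at 5.38, Tnfsf11 at 4.27, Lepr at 1.37 and Il7 at 0.35 CPM per kilobase. The decoy receptor gene was above the RANKL gene in every library. Not every step in this order held in every library. Csf1 was above Cxcl12 in 7 of 11 libraries, Vcam1 above Tnfrsf11b in 8, Kitl above Foxc1 in 8 and Angpt1 above Tnfsf11 in 5, so the order of these neighbours changed between libraries. Csf1 and Cxcl12 had group means of 445 and 277 CPM per kilobase in A young, and of 337 and 496 in C old. Those of Angpt1 and Tnfsf11 were 2.36 and 2.65 in A young, and 10.1 and 2.98 in C old. The lowest library of Cxcl12 was above the highest of Vcam1, the lowest of Tnfrsf11b above the highest of Kitl, and the lowest of Lepr above the highest of Il7. Il7 was close to the detection limit, with 9 to 39 counts per library, and Lepr was low for a gene that defines niche cells, with 36 to 271 counts per library.

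**Figure D1:**
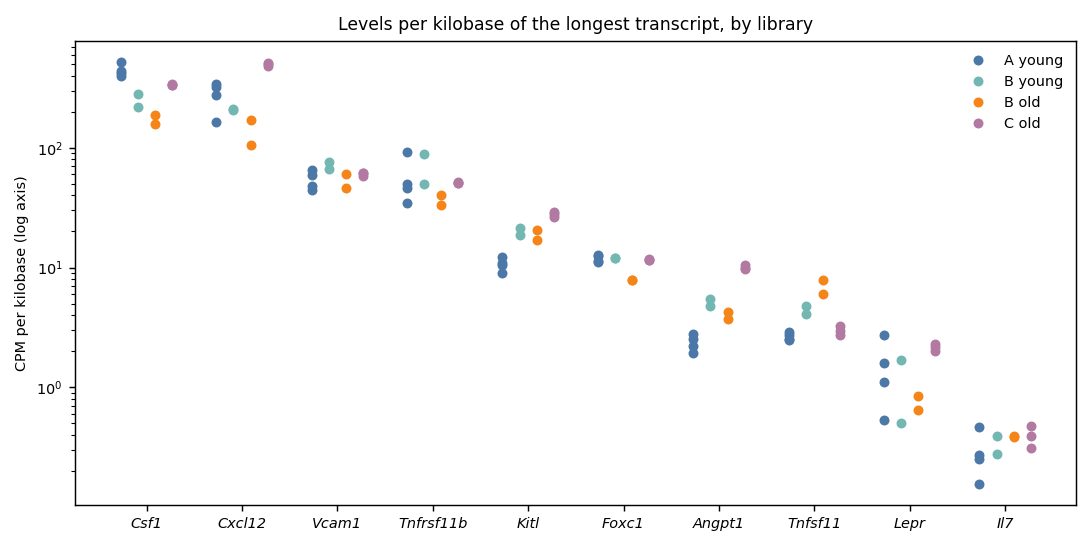
Level of each member in CPM per kilobase of its longest transcript (vertical log axis), with 1 point per library coloured by group. Csf1 and Cxcl12 lie highest and Il7 lowest, and the groups of Angpt1, Kitl, Cxcl12 and Tnfsf11 lie apart from each other more than those of Vcam1.

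The effect of age was tested over all 11 libraries with batch in the model. Batch B is the only batch that contains both ages, so its 2 young and 2 old libraries set this value. Of the 10 members, 1 passed the threshold for age, and that was Foxc1, which was lower in old cells. Over all 16132 genes tested, 2.23% passed (360 genes), of which 31.1% were higher in old cells, or 44.8% when libraries were scaled by their total counts alone. The median log2 fold change was -0.48 over the 10 members and 0.0044 over all genes tested, with 8 members below 0 and 2 above. In batch B, the old and young libraries of 7 members did not overlap. Such a separation was found for 39.7% of all tested genes, and both old libraries were below both young ones for 20.6% of them and for 6 of the 10 members, namely Cxcl12, Angpt1, Vcam1, Csf1, Tnfrsf11b and Foxc1. Tnfsf11 was the member with both old libraries above both young ones. The count of members past the threshold was 3 without A young replicate 1 and 3 without B young replicate 2. It was 0 by edgeR without B old replicate 1 and 0 by edgeR in batch B alone, where 3 and 6 members had an unadjusted p under 0.05. With DESeq2 it was 3, without a filter on low counts 5, with limma-trend 1, and without batch in the model 2. The count over all genes was equally dependent on the libraries, from 84 without B old replicate 1 to 2007 without B young replicate 2.

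The batches were compared at constant age, and more genes passed the threshold than for age. Between the young cells of batches B and A, 4 of 10 members passed the threshold, against 18.1% of 14840 genes tested. Between the old cells of batches C and B, 8 of 10 passed, against 64.7% of 15651 genes. The old cells of batch C were also compared with the young cells of batch A. This comparison shares no library with batch B, but age and batch change together in it and cannot be told apart. Here 4 of 10 members passed, against 63.8% of 15021 genes. The share of members was above that of all genes in the comparisons within an age and below it in the last one, and these shares were not tested against each other. Scaling by total counts instead of TMM factors shifted the median over all genes by 0.19 log2 units in the comparison of C old with B old and by 0.29 in that of C old with A young. Among all genes past the threshold, it also raised the percentage of those higher in the batch named first from 51.9 to 66.3 for B young against A young, from 49.6 to 62.8 for C old against B old, and from 50.1 to 72.5 for C old against A young. In the last of these it raised the number of members past the threshold from 4 to 8 of 10, and that of all genes from 9584 to 9947. The age comparison, the comparison of the young cells and that of the old cells all use libraries of batch B, and whether the effects of 2 comparisons differ from each other was not tested.

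**Figure D2:**
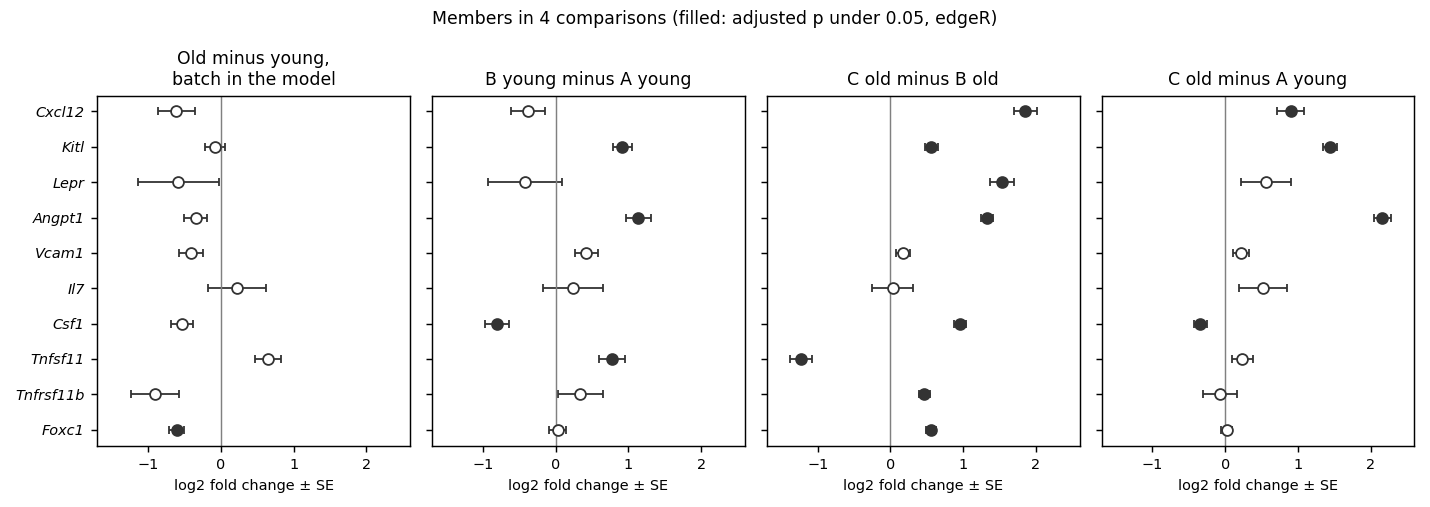
Log2 fold change of each member with its SE (horizontal axis) in the 4 comparisons, with filled points where the adjusted p of edgeR was under 0.05. Foxc1 is the only filled point for age, at -0.61, while 8 of 10 points are filled for C old minus B old and Tnfsf11 is the filled point below 0 there.

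Foxc1 (ENSMUSG00000050295, GRCm38 chr13:31806633-31812476, plus strand) encodes the forkhead factor of niche stromal cells and was the member that passed the threshold for age. It was at 66.3, 64.8, 73.3 and 73.8 CPM in the 4 A young libraries, at 69.9 and 69.7 CPM in B young, at 46.0 and 45.6 CPM in B old, and at 67.0, 68.2 and 67.6 CPM in C old. The B old libraries were below all 9 others. The A young range covered both B young and C old, and the B young libraries were slightly above those of C old. The log2 fold change for age was -0.61 (SE 0.10, adjusted p = 0.0059, edgeR), a level 1.52-fold lower in old cells, and C old was above B old by 0.56 (SE 0.065, adjusted p = 1.3e-05). The difference of C old and A young was 0.02 (SE 0.071, adjusted p = 0.832), which scaling by total counts turned into a call of 0.31 (adjusted p = 0.00244), and that of B young and A young was 0.03 (SE 0.12, adjusted p = 0.896). The lower level in old cells was thus measured in batch B, and the C old libraries lay within the range of the young libraries. The age value stayed between -0.59 and -0.61 when any library was left out, but the call was lost without B old replicate 1 (adjusted p = 0.0766), in batch B alone (-0.61, adjusted p = 0.125) and without batch in the model (-0.22, adjusted p = 0.247). Over the 20 alternatives its adjusted p was between 3.09e-05 and 0.247.

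Reference promoter sequences are shown for Foxc1, for Tnfsf11, the member that was higher in both B old libraries, and for Cxcl12, the member with the largest difference between the old cells of batches C and B. They come from RefSeq (GRCm38.p6), which held a window of 250 bases before to 50 bases after the start site for 6 of the 10 members. They lie at chr13:31806396-31806695 (plus strand), chr14:78307994-78308293 (minus strand) and chr6:117168285-117168584 (plus strand). Capitals mark matches on either strand to the motifs searched, namely the hypoxia response element core ACGTG, the forkhead motif GTAAACA, the RUNX motif TGTGGT, the GC box with the letters GGGCGG, the box named TATA with the letters TATAAA, the box named for its letters CCAAT, and an NF-kB motif.
Foxc1: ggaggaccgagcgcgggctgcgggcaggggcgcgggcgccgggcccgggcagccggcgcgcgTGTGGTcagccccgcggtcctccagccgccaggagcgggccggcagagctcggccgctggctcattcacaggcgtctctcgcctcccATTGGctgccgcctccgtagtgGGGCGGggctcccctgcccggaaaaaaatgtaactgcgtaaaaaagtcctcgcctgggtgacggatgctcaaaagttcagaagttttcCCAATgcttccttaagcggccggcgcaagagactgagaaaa
Tnfsf11: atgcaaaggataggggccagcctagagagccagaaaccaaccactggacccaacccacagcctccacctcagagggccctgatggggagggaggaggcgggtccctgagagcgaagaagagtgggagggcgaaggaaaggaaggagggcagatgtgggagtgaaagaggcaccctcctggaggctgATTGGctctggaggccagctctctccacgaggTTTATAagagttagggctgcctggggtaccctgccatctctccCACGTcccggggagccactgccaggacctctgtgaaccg
Cxcl12: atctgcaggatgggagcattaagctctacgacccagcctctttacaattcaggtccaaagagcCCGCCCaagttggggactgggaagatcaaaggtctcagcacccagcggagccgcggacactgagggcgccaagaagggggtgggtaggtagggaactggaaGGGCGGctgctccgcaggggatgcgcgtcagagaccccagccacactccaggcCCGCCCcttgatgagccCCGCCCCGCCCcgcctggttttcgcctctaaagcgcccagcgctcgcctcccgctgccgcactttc
The Foxc1 window held a RUNX match from -188 to -183, a GC box from -79 to -74 and CCAAT boxes from -101 to -97 and from 10 to 14, counted from the start site. The Tnfsf11 window held a CCAAT box from -64 to -60, a TATA box from -32 to -27 and the hypoxia response element core from 12 to 16, all on the other strand. The Cxcl12 window held 5 GC boxes, of which the 2 nearest to the start site share a base, and no other match. Of all 32851 windows in the table, 35.7% held a GC box, 37.4% a CCAAT box, 13.6% a TATA box, 16.8% the RUNX motif, 19.6% the hypoxia response element core, 3.65% the forkhead motif and 1.37% the NF-kB motif. These matches are descriptions of the letters in the windows, and no binding was measured.

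Cxcl12 (ENSMUSG00000061353, chr6:117168535-117181367, plus strand), which encodes the retention chemokine, was at 928, 1822, 1547 and 1934 CPM in A young, at 1194 and 1165 CPM in B young, at 589 and 955 CPM in B old, and at 2805, 2849.7 and 2725 CPM in C old. All 3 C old libraries were above every other library, and both B old libraries were below both B young ones, although A young replicate 1 was as low as B old replicate 2. C old was above B old by a log2 fold change of 1.85 (SE 0.16, adjusted p = 8.83e-07) and above A young by 0.90 (SE 0.18, adjusted p = 0.00091). The value for age was -0.61 (SE 0.26, adjusted p = 0.259) and did not pass the threshold. It was -0.30 without B old replicate 1 and -1.004 without B old replicate 2, neither of which passed, and it passed only without a filter on low counts (-0.62, adjusted p = 0.000305, the lowest of a range up to 0.768 over the alternatives run), while it was 0.49 without batch in the model. That of B young against A young was -0.38 (SE 0.23, adjusted p = 0.274), and -0.56 (adjusted p = 0.0265) without A young replicate 1, with adjusted p between 0.0265 and 0.89 over the alternatives run. The 2 old groups therefore held the lowest and the highest levels of this chemokine in the series, 3.61-fold apart.

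Kitl (ENSMUSG00000019966, chr10:100015630-100100416, plus strand) was at 59.7, 69.6, 50.7 and 61.9 CPM in A young, at 104.9 and 119.7 CPM in B young, at 95.02 and 117 CPM in B old, and at 158, 163 and 149.9 CPM in C old. The groups were ordered by batch, with A lowest and C highest, and old and young overlapped within batch B. Stem cell factor transcripts were higher in B young than in A young by 0.92 (SE 0.13, adjusted p = 0.0018), higher in C old than in B old by 0.56 (SE 0.087, adjusted p = 0.000123), and higher in C old than in A young by 1.44 (SE 0.092, adjusted p = 8.71e-08). For age the value was -0.08 (SE 0.14, adjusted p = 0.816).

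Angpt1 (ENSMUSG00000022309, chr15:42424723-42676977, minus strand) showed the same order of batches with larger differences. It was at 8.25, 10.7, 9.41 and 11.9 CPM in A young, at 20.3 and 23.1 CPM in B young, at 15.96 and 18.1 CPM in B old, and at 42.5, 44.3 and 41.7 CPM in C old. No libraries of different groups overlapped. It was higher in B young than in A young by 1.14 (SE 0.17, adjusted p = 0.00195), higher in C old than in B old by 1.33 (SE 0.089, adjusted p = 1.24e-07), and higher in C old than in A young by 2.16 (SE 0.11, adjusted p = 1.71e-08), the largest difference of any member in these comparisons. Age gave a value of -0.35 (SE 0.15, adjusted p = 0.274). Kitl and Angpt1 were among the most alike pairs of members, with a root mean square difference of 0.33 between their log2 CPM, each centred on its own mean over the 11 libraries, after Vcam1 and Foxc1 with 0.28.

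Vcam1 (ENSMUSG00000027962, chr3:116109949-116129688, minus strand), the adhesion molecule for integrin-bearing blood cells, varied least of the niche ligands. It was between 180.2 and 266 CPM in A young, at 308 and 274 CPM in B young, at 190.2 and 248 CPM in B old, and between 236 and 252 CPM in C old. It passed the threshold in 0 of the 4 comparisons by edgeR, although its unadjusted p was under 0.05 in 2 of them. By edgeR, its value for age was -0.41 (SE 0.17, adjusted p = 0.231) and that for B young against A young 0.42 (SE 0.16, adjusted p = 0.0829). C old differed from B old by 0.17 (SE 0.096, adjusted p = 0.144) and from A young by 0.22 (SE 0.12, adjusted p = 0.119). Without B old replicate 2, C old was above B old by 0.37 (adjusted p = 0.000453), and without A young replicate 2, C old was above A young by 0.31 (adjusted p = 0.0201), while without B old replicate 1 the former value was -0.01. The age value was -0.22 without B old replicate 1 and -0.62 without B old replicate 2 and passed only without a filter on low counts (-0.42, adjusted p = 0.0449). Over the alternatives run, the adjusted p was between 0.0449 and 0.879 for age, between 0.000453 and 0.897 for C old against B old and between 0.00216 and 0.281 for C old against A young. When scaled by total counts, Vcam1 was higher in B than in A (0.49, adjusted p = 0.045) and in C old than in B old (0.36, adjusted p = 0.00794) and A young (0.51, adjusted p = 0.00216).

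Il7 (ENSMUSG00000040329, chr3:7569994-7613760, minus strand) was between 0.76 and 2.27 CPM in A young, at 1.35 and 1.91 CPM in B young, at 1.89 and 1.87 CPM in B old, and between 1.52 and 2.30 CPM in C old. All 4 groups overlapped or lay within the range of A young, and no difference was detectable at this depth in any comparison (adjusted p of 0.833, 0.721, 0.934 and 0.179 for age, B young against A young, C old against B old and C old against A young). Some alternatives did call C old above A young. Among them were the fit without A young replicate 4 (0.84, adjusted p = 0.0321, and between 0.0321 and 0.47 over the alternatives run) and that with a replicate block. Antisense genes overlap Il7 (Gm16685), Vcam1 (Gm43109) and Angpt1 (Gm17473). They reached at most 0.204, 0.508 and 0.118 CPM, and whether the counting used strand is not given in the sources used here.

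Lepr (ENSMUSG00000057722, chr4:101717404-101815352, plus strand), the receptor that marks niche stromal cells, was the most variable member within both young groups but not within the old ones. It was at 15.0, 8.78, 2.97 and 6.17 CPM in A young, at 9.32 and 2.79 CPM in B young, at 3.57 and 4.67 CPM in B old, and at 11.2, 12.0 and 12.8 CPM in C old. The coefficient of variation was 62.0% in A young and 76.3% in B young against 19.0% in B old and 6.61% in C old. Lepr was higher in C old than in B old by 1.53 (SE 0.16, adjusted p = 6.1e-06). The value for age was -0.59 (SE 0.56, adjusted p = 0.644), for B young against A young -0.42 (SE 0.51, adjusted p = 0.597), and for C old against A young 0.56 (SE 0.34, adjusted p = 0.169). Without A young replicate 1, the library with the highest level of this gene, the last value was 1.05 (adjusted p = 0.00167), and over the alternatives run its adjusted p was between 0.000764 and 0.335.

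**Figure D3:**
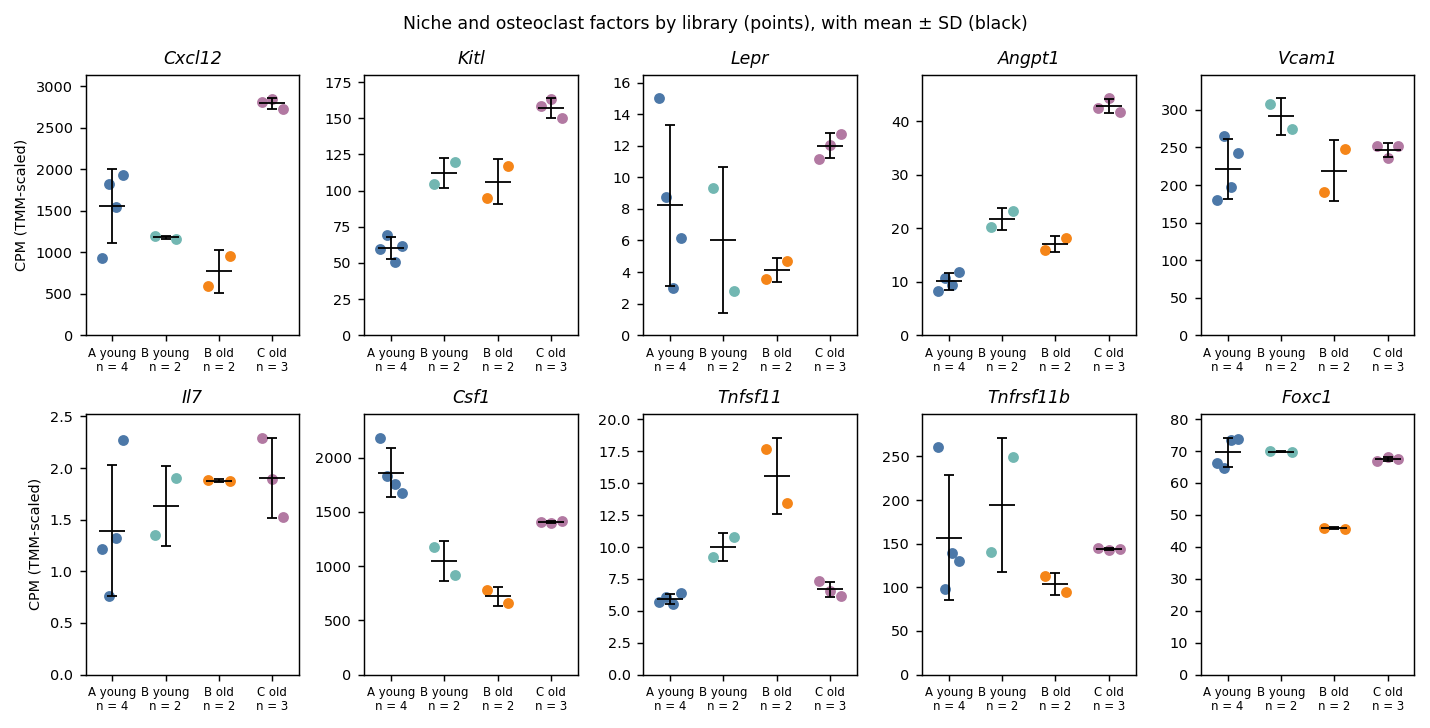
CPM of each member (vertical axes from 0) in the 4 groups, with 1 point per library and the mean ± SD of each group in black. C old lies above all other groups for Cxcl12, Kitl and Angpt1, and B old lies below all other libraries for Foxc1 (46.0 and 45.6 CPM) and above them for Tnfsf11 (17.7 and 13.5 CPM).

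Csf1 (ENSMUSG00000014599, chr3:107741048-107760469, minus strand), the survival factor of macrophages and osteoclast precursors, was at 2184, 1825, 1755 and 1677 CPM in A young, at 1179.8 and 917 CPM in B young, at 782 and 659.6 CPM in B old, and at 1405, 1397 and 1418 CPM in C old. No libraries of different groups overlapped, with A young highest and B old lowest. Csf1 was lower in B young than in A young by a log2 fold change of -0.81 (SE 0.16, adjusted p = 0.00657), a call that was lost without B young replicate 2 (-0.64, adjusted p = 0.0652). It was higher in C old than in B old by 0.96 (SE 0.084, adjusted p = 1.08e-06), and lower in C old than in A young by -0.34 (SE 0.091, adjusted p = 0.00521), or by -0.05 without passing the threshold (adjusted p = 0.623) when scaled by total counts. The value for age was -0.54 (SE 0.15, adjusted p = 0.0801). It passed the threshold without A young replicate 1 (-0.54, adjusted p = 0.0377), without B young replicate 2 (-0.71, adjusted p = 0.00984), with DESeq2 (-0.53, adjusted p = 0.0103) and without a filter on low counts (-0.55, adjusted p = 0.00223). Over the alternatives run, the adjusted p was between 0.00223 and 0.358 for age, between 5.31e-06 and 0.0652 for B young against A young, and between 0.000102 and 0.623 for C old against A young.

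Tnfsf11 (ENSMUSG00000022015, chr14:78277445-78308043, minus strand), the gene of RANKL, was at 5.65, 6.08, 5.53 and 6.42 CPM in A young, at 9.22 and 10.8 CPM in B young, at 17.7 and 13.5 CPM in B old, and at 7.30, 6.54 and 6.16 CPM in C old. The B old libraries were the highest of all and the B young libraries came next, while A young and C old overlapped. Tnfsf11 was lower in C old than in B old by -1.22 (SE 0.15, adjusted p = 2.04e-05), the only member to pass the threshold in that direction there. It was higher in B young than in A young by 0.78 (SE 0.18, adjusted p = 0.0138), a call that was lost without B young replicate 2 (0.66, adjusted p = 0.124). The value for age was 0.65 (SE 0.18, adjusted p = 0.0716), and it passed without B young replicate 2 (0.75, adjusted p = 0.0322) and with DESeq2 (0.65, adjusted p = 0.0497). C old and A young differed by 0.24 (SE 0.14, adjusted p = 0.164), and by 0.53 (adjusted p = 0.0063) when scaled by total counts. Over the alternatives run, the adjusted p was between 0.0322 and 0.512 for age, between 0.00432 and 0.16 for B young against A young, and between 0.0063 and 0.464 for C old against A young.

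Tnfrsf11b (ENSMUSG00000063727, chr15:54250619-54278484, minus strand), the gene of OPG, was at 261, 97.8, 139 and 129.8 CPM in A young, at 140.4 and 249 CPM in B young, at 113 and 94.5 CPM in B old, and at 145, 142 and 144 CPM in C old. Levels were spread widely in A young and B young, with A young replicate 1 and B young replicate 2 far above the others, and were nearly constant in C old. C old was above B old by 0.47 (SE 0.078, adjusted p = 0.000251). The value for age was -0.91 (SE 0.33, adjusted p = 0.172), for B young against A young 0.33 (SE 0.31, adjusted p = 0.479), and for C old against A young -0.07 (SE 0.24, adjusted p = 0.804). Of these, 0 of 3 passed by edgeR, with 1 of 3 at an unadjusted p under 0.05. Without A young replicate 1 all 3 passed, at -0.91 (adjusted p = 0.0252), 0.69 (adjusted p = 0.0365) and 0.28 (adjusted p = 0.0293). The age value itself moved with the libraries of batch B, from -0.44 without B young replicate 2 to -1.27 without B young replicate 1. It also passed by edgeR without a filter on low counts (-0.92, adjusted p = 4.09e-09). The fold change hardly moved there from -0.91, and why the adjusted p fell was not tested. Over the alternatives run, the adjusted p was between 4.09e-09 and 0.472, between 0.0365 and 0.872, and between 0.0293 and 0.915.

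The 2 transcripts were then set against each other in each library, as the log2 of the CPM of Tnfsf11 over that of Tnfrsf11b, a ratio that does not depend on the scaling of the library. It was -5.53, -4.01, -4.65 and -4.34 in A young, -3.93 and -4.53 in B young, -2.67 and -2.81 in B old, and -4.31, -4.44 and -4.54 in C old. B old was thus above all 9 other libraries, with 6.38 and 7.01 OPG counts for each RANKL count, against 15.2 to 46.2 in the other groups. The mean log2 ratio was -2.74 ± 0.097 (SD, n = 2) in B old, -4.23 ± 0.43 (SD, n = 2) in B young, -4.63 ± 0.65 (SD, n = 4) in A young and -4.43 ± 0.12 (SD, n = 3) in C old. The means of batch B differed by 1.49 on the log2 scale, or 2.81-fold, and by 1.19 to 1.79 when any of its libraries was left out. No p-value is given for this ratio, since it combines members whose values were known and 2 libraries against 2 cannot reach a p of 0.05 by permutation. The old cells of batch C did not share the high ratio of B old, and lay within the range of the young cells.

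**Figure D4:**
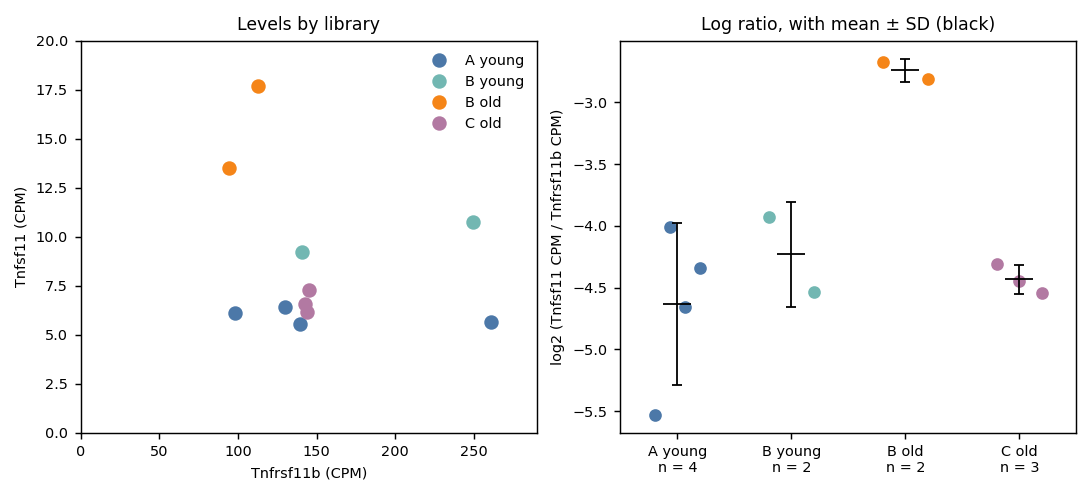
Left, CPM of Tnfsf11 (vertical axis) against CPM of Tnfrsf11b (horizontal axis) with 1 point per library. Right, log2 ratio of the 2 by group, with mean ± SD in black, where the B old libraries lie at -2.67 and -2.81 and all other libraries at -3.93 or below.

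Receptors and processing enzymes of these ligands were read from a list of 20 genes, all of which were in the table and 19 of which were tested for age. Of these, 3 passed the threshold, against 2.23% of all genes tested. Mmp9, a matrix protease that osteoclasts make and that can free membrane-bound KITL, was at 0.208 and 0.272 CPM in B young and at 9.22 and 3.00 CPM in B old, from 8 and 182 counts (log2 fold change 4.64, SE 0.59, adjusted p = 0.000847). Angpt4, a ligand of TEK, was at 16.3 and 17.9 CPM in B young and at 31.9 and 26.6 CPM in B old (0.78, SE 0.20, adjusted p = 0.0499). In A young it was at 18.5 to 31.0 CPM, which overlapped with B old. Dpp4, a peptidase that inactivates CXCL12, was at 1.09 and 2.79 CPM in B young and at 0.202 and 0.200 CPM in B old, the level of 3 counts in each. Its 62 and 6 counts give a ratio of 9.09 with an exact interval of 3.95 to 25.7 that covers counting error only (adjusted p = 0.0256). The list's median log2 fold change for age was 0.32. The number of list genes past the threshold for age was 3 with DESeq2, 2 with limma-trend and, of 18 tested, 1 by edgeR in batch B alone. Between young cells of batches B and A, 3 of 18 tested genes passed, against 18.1% of all genes. Csf1r, the CSF1 receptor, was lower in B (-1.50, SE 0.38, adjusted p = 0.0182), and Tek (1.23, SE 0.30, adjusted p = 0.0151) and Ackr3, a scavenger receptor of CXCL12 (0.76, SE 0.15, adjusted p = 0.00642), were higher.

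Between C old and B old, 11 of 19 receptor and enzyme genes passed, 3 higher and 8 lower in C, against 64.7% of all genes. Il7r, the IL7 receptor chain, was at 1.68 and 1.27 CPM in B old and without any count in the 3 C old libraries, so that it was at least 7.50-fold higher in B old when set against 3 counts per library. Mmp9 was lower in C old by -4.11 (SE 0.53, adjusted p = 2.81e-05), Csf1r by -2.23 (SE 0.19, adjusted p = 7.33e-07) and Tnfrsf11a, the RANKL receptor, by -2.21 (SE 0.27, adjusted p = 1.91e-05). Between C old and A young, 12 of 16 passed, 6 in each direction, against 63.8% of all genes. They included Csf1r (-3.31, SE 0.25, adjusted p = 3.14e-07), Tnfrsf11a (-2.08, SE 0.29, adjusted p = 3.92e-05), the integrin subunit Itga4 (-1.93, SE 0.31, adjusted p = 0.000157) and Tek (2.16, SE 0.29, adjusted p = 2.81e-05). The receptors of the 2 main retention ligands were at or near the detection limit in all libraries, with Cxcr4 at 0 to 0.673 CPM and Kit at 0.068 to 0.943 CPM.

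Other genes of the stromal niche were read from a list of 24, of which 23 were in the table and tested. For age 1 of 23 passed the threshold, against 2.23% of all genes. This was Pdgfra, a receptor that marks mesenchymal progenitors. It was at 236 and 194 CPM in B young and at 109 and 128 CPM in B old, and was lower in B old by -0.86 (SE 0.15, adjusted p = 0.00591). In C old it was at 268 to 289 CPM, above B old by 1.22 (SE 0.079, adjusted p = 9.64e-08) and above A young by 0.62 (SE 0.096, adjusted p = 0.00011). The median log2 fold change for age was -0.26 over the list, with 17 of 23 genes below 0. Ebf1 and Ebf3, transcription factors of niche stromal cells, were at -0.08 (SE 0.13, adjusted p = 0.796) and -0.27 (SE 0.22, adjusted p = 0.585). Between young cells, 6 of 23 passed, against 18.1% of all genes, and 5 of them were lower in B than in A. These included Dlk1, a preadipocyte factor, at -1.61 (SE 0.30, adjusted p = 0.00463), the intermediate filament gene Nes at -1.25 (SE 0.23, adjusted p = 0.00454), the Notch ligand Jag1 at -0.90 (SE 0.15, adjusted p = 0.00264) and Pdgfrb at -0.88 (SE 0.16, adjusted p = 0.0048).

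Between C old and B old, 21 of the 23 niche genes passed, 17 of them higher in C, against 64.7% of all genes. The median was 0.87 against 0.023 over all genes tested. Ebf1 was higher in C old by 0.87 (SE 0.065, adjusted p = 2.93e-07) and Ebf3 by 1.23 (SE 0.12, adjusted p = 3.85e-06). Esm1, the gene of the proteoglycan endocan, was higher by 2.31 (SE 0.18, adjusted p = 4.85e-07), and the chemokine Cxcl14 was lower by -2.51 (SE 0.093, adjusted p = 1.72e-09). Adipoq, the adipocyte hormone that in vivo is also made by niche stromal cells, had 3 counts in B old and 525 in C old, a ratio of 113 with an exact interval of 38.6 to 551 that covers counting error only. Tslp, a cytokine gene, had 4 and 67 counts, a ratio of 10.8 (4.04 to 41.0). Between C old and A young, 17 of 23 passed, 12 of them higher in C, against 63.8% of all genes. The 17 included Adipoq at 3.34 (SE 0.55, adjusted p = 0.000187), the cytokine gene Il15 at 1.64 (SE 0.29, adjusted p = 0.000322), Thpo, the gene of thrombopoietin, at 1.41 (SE 0.34, adjusted p = 0.0028) and Cxcl14 at -1.53 (SE 0.32, adjusted p = 0.00102).

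Stromal genes that act on osteoclast formation, such as gp130 cytokines, prostaglandin enzymes and Wnt factors, were read from a list of 21, all of them tested. For age 1 passed, against 2.23% of all genes. This was the gp130 cytokine gene Lif, at 1.61 and 1.43 CPM in B young and 4.31 and 3.54 CPM in B old (1.35, SE 0.33, adjusted p = 0.0435), and the list's median was 0.05. The call depended on the libraries used. By edgeR, 0 of the 21 passed for age without A young replicate 2 or 3, without C old replicate 1 or 3, or in batch B alone. In these fits 5 to 7 of the 21 had an unadjusted p under 0.05. Between young cells, 5 of 21 passed, against 18.1% of all genes. The 5 included the prostaglandin synthase gene Ptgs2 at 1.61 (SE 0.46, adjusted p = 0.029), the prostaglandin receptor gene Ptger2 at -1.49 (SE 0.45, adjusted p = 0.0385), Il11 at 1.21 (SE 0.39, adjusted p = 0.0477) and the Wnt antagonist gene Sfrp1 at 0.86 (SE 0.13, adjusted p = 0.00228), each as B minus A. Between C old and B old, 10 of 21 passed, 5 in each direction, against 64.7% of all genes. The 10 included Vdr, the vitamin D receptor, at -1.28 (SE 0.18, adjusted p = 4.9e-05), Il6 at 1.12 (SE 0.32, adjusted p = 0.00894), Lif at 0.80 (SE 0.21, adjusted p = 0.00548) and the chemokine gene Ccl2 at -0.76 (SE 0.15, adjusted p = 0.000817). Between C old and A young, 12 of 21 passed, 8 of them higher in C, against 63.8% of all genes. The 8 were led by Il6 (3.34, SE 0.36, adjusted p = 5.06e-06), Ptgs2 (3.24, SE 0.38, adjusted p = 1.09e-05), Lif (2.10, SE 0.25, adjusted p = 1.03e-05) and Sfrp1 (1.77, SE 0.12, adjusted p = 1.12e-07).

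The cells' label was checked against marker genes, whose lists share some genes. Over all genes tested, 2.23% passed the threshold for age and 18.1% for B young against A young. For C old, 64.7% of all genes passed against B old and 63.8% against A young. All 9 stromal markers were expressed in every group, with a summed level of 3115 to 3736 CPM, Ly6a (Sca-1) at 270.2 to 778 CPM and Pdgfra at 109 to 289 CPM. All 15 blood and macrophage markers were also detected in every group. Their summed level was 775 to 1725 CPM in A young, 435 to 894 CPM in B young, 901 to 1285.5 CPM in B old and 150.3 to 177 CPM in C old, with Ptprc (CD45) at 3.47 to 22.2 CPM and Csf1r at 15.7 to 263 CPM. For age, 0 of these 15 passed by edgeR, 7 had an unadjusted p under 0.05, and DESeq2 called 1 and limma-trend 0. All 15 had a value for age above 0, that is higher in old cells, with a median log2 fold change of 0.70. By contrast, all 15 were lower in C old than in B old and than in A young. Of 13 osteoclast markers, 10 were tested for age and 2 passed, namely Mmp9 and Acp5, the tartrate-resistant phosphatase, at 0.781 and 1.70 CPM in B young and 6.13 and 3.07 CPM in B old (1.92, SE 0.40, adjusted p = 0.0194). Ctsk, the gene of cathepsin K, was at 111 to 171 CPM in all libraries with no call in any comparison by edgeR (unadjusted p above 0.05 in 4 of 4 comparisons), and Calcr and Ocstamp, which mark mature osteoclasts, were at or under 3 counts in all libraries. Of the 10 osteoclast markers tested for age, 8 had a value above 0, with a median log2 fold change of 0.61. Dcstamp had 3 to 15 counts in B old and 0 in B young, and Atp6v0d2 had 25 to 36 counts in B old and 0 to 15 in B young. Between B young and A young, all 15 blood and macrophage markers had a lower level in B, 7 of them past the threshold, with a median log2 fold change of -1.10. The summed levels of the blood and macrophage markers did not overlap between old and young in batch B. The gap was narrow, with 894 CPM in B young replicate 1 and 901 CPM in B old replicate 2. Their sums in C old did not overlap with any other group. These levels stand beside the 7 members whose batch B libraries did not overlap between ages, Kitl, Angpt1, Csf1 and Tnfsf11 between the young groups, and the members that differed between batch C and the others. Their part in these results was not tested.

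Adipocyte markers moved with batch C. Of 7, 6 were tested, and the summed level was 292 to 313 CPM in C old against 92.5 to 159.9 CPM in the other 8 libraries. Past the threshold, 5 of 6 were higher in C old than in B old and 6 of 6 higher than in A young. Of all genes, 64.7% and 63.8% passed in these comparisons, in either direction. Osteoblast markers summed to 53010 to 62430 CPM in A young, 24957 to 43326 CPM in B young, 23123 to 24361 CPM in B old and 19288 to 20636 CPM in C old, but most of this sum is the collagen gene Col1a1, with group means of 55970 CPM in A young and 18961 CPM in C old. The rest of the list mostly differed the other way. Between C old and A young, 5 of 8 markers were higher in C old and 1, Col1a1, was lower (-1.50, SE 0.098, adjusted p = 9.91e-08), against 63.8% of all genes past the threshold. The 5 were the osteoblast factors Runx2 (0.50, SE 0.10, adjusted p = 0.000807) and Sp7 (1.17, SE 0.12, adjusted p = 3.3e-06), the matrix protein genes Ibsp (2.56, SE 0.20, adjusted p = 4.47e-07) and Bglap (3.08, SE 0.35, adjusted p = 8.04e-06), and Alpl, the alkaline phosphatase gene (0.81, SE 0.11, adjusted p = 4.08e-05). Against B old, Runx2, Sp7, Ibsp and Bglap were higher in C old and Col1a1 and Spp1 lower, against 64.7% of all genes past the threshold. Between B young and A young 1 was higher and 4 lower in B, against 18.1% of all genes. For age, 1 of 8 passed, Alpl (0.98, SE 0.15, adjusted p = 0.00287), against 2.23% of all genes. These osteoblast markers are named after their values were seen. Endothelial markers summed to 4.54 to 12.5 CPM, and 0 of the 3 tested passed for age (by edgeR, limma-trend or DESeq2, with 0 at an unadjusted p under 0.05). Among stromal markers, 2 of 9 passed for age, against 2.23% of all genes, namely Pdgfra and, named after its values were seen, Nt5e (CD73). Both were lower in B old than in B young (Nt5e -1.34, SE 0.25, adjusted p = 0.00932). C old did not share these low levels, with Pdgfra at 268 to 289 CPM. Nt5e was at 12.6 to 18.3 CPM in C old against 8.42 and 9.81 CPM in B old. In A young, Nt5e was at 10.7 to 12.6 CPM, nearer to B old than to B young. The B young mean was 23.3 CPM (coefficient of variation 43.9%), and B young replicate 2 was the highest library at 30.5 CPM. The age value of Nt5e thus reflects a high level in B young as well as a low one in B old. In these bulk samples fewer cells that express a member and less RNA of it per cell cannot be told apart.

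**Figure D5:**
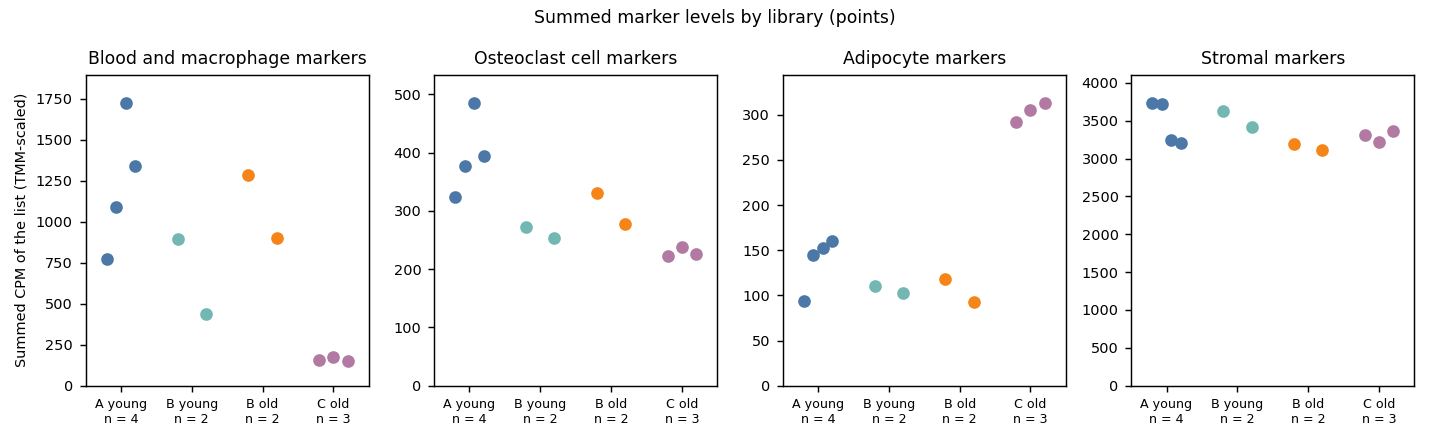
Summed CPM of 4 marker lists (vertical axes from 0) in the 4 groups, with 1 point per library. Blood and macrophage markers are lowest in C old (150.3 to 177 CPM) and adipocyte markers highest there (292 to 313 CPM), while the stromal sum stays between 3115 and 3736 CPM.

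Lastly, the genes with the pattern most like each member over the 11 libraries were searched among 12011 genes, by the root mean square difference of centred log2 CPM, which is smaller for more similar patterns. Cxcl12 was nearest to Zfp423, a zinc finger factor of stromal and preadipocyte cells (0.15), and Sh3d21 (0.17). Kitl was nearest to Odr4 (0.076) and Gpbp1l1 (0.11). Angpt1 was nearest to Oxtr, the oxytocin receptor (0.17), and Efemp1, an extracellular matrix gene (0.22). Being nearest follows from the search, and the distances are given only to show how alike the patterns are. Csf1 was nearest to Ddr1, a collagen receptor (0.13), and Ank1 (0.13), Tnfsf11 to Sms, the spermine synthase (0.13), and Ccnc (0.14), and Foxc1 to Pnrc1 (0.094) and Rtl8b (0.094). Vcam1 was nearest to Marcks (0.10) and Lrpap1 (0.13). Il7 was nearest to Znhit3 (0.21) and Rpgr (0.23), Tnfrsf11b to Cgref1 (0.27) and Styk1 (0.28), and Lepr to Shank2 (0.38) and Sim2 (0.41), the largest distances to a nearest gene among the 10 members being those of Lepr and Tnfrsf11b. These likenesses are descriptions over libraries that share batches.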

How the data were processed

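The authors deposited raw counts, whole numbers per gene and library without normalization, from polyadenylated RNA of 11 libraries. The submitters' processing notes name mm10 and GRCm38. Aligner, counting program, strand setting and use of molecular identifiers are not given in the sources used here. Columns were assigned to libraries by the sample labels (0 columns were left unassigned), and groups follow age and batch in the labels. Of 28222 Ensembl genes, 28179 were matched to GENCODE M21 (GRCm38), from which symbols, coordinates and transcript lengths were taken.

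edgeR 4.0.16 in R 4.3.3 was used for quasi-likelihood tests of the counts after filterByExpr with a minimum count of 5 and TMM scaling, two-sided, with Benjamini-Hochberg adjustment over all tested genes and a threshold of 0.05. The SE is the log2 fold change divided by the square root of its F. CPM values are counts over TMM-scaled totals. A prior count of 2 was added for log2 CPM. Library totals limit the precision as given with the groups, and intervals and floors cover counting error only. On simulated counts with known changes, the edgeR test recovered 91.5% of changed genes for age among 16103 genes. The simulation gave all genes the same fixed spread and changed only genes with many counts. Its share of recovered genes is therefore no estimate of the share found in the real libraries. limma 3.58.1 (limma-trend), DESeq2 1.42.0, other scalings and filters, a replicate block and leaving out libraries were alternatives.

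Named genes are all members, list genes past the threshold for age, up to 4 list genes with the largest change in each other comparison, defining markers, and the 2 genes of most similar pattern with a mean of at least 1 CPM. Ebf1, Ebf3, Cxcr4, Kit and some further markers are named outside this rule, with their values known. The members and all lists were chosen with earlier results of these data known.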

Additional observations from a re-analysis of the deposited data

How the results depend on the processing

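Of the values of single members under the alternatives, 534 kept their direction and their side of the threshold, 28 passed it in addition, 7 no longer passed it and 21 turned their direction. For age, the number of members past the threshold was 3 with DESeq2, 5 without a filter on low counts, 2 without batch in the model and 0 in batch B alone, and between 0 and 3 with a library left out. The number of all genes was 640 with DESeq2, 1094 without a filter, 2641 without batch and 123 in batch B alone, and between 84 and 2007 with a library left out (578 without A young replicate 1, 84 and 203 without B old replicates 1 and 2, 206 and 2007 without B young replicates 1 and 2). In B young against A young, leaving out a library gave 2 to 6 members and 511 to 4031 genes (1293 and 1726 without A young replicates 3 and 4, 4031 and 511 without B young replicates 1 and 2). In C old against B old it gave 8 to 9 members and 9047 to 9624 genes, and in C old against A young 4 to 6 members and 8549 to 9764 genes, with 8 members under scaling by total counts. Where a group was left with 1 library, that library is assumed to vary like the others.

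Directions turned for members that had not passed the threshold in that comparison, and an adjusted p is given where the turned value passed it. For age without batch in the model they were Cxcl12 (0.49), Kitl (0.83, adjusted p = 0.0313), Lepr (0.25) and Angpt1 (1.24, adjusted p = 0.0313), in which case the difference between batches enters the value. With a library left out, the ranges for age were -0.24 to 0.070 for Kitl, -1.18 to 0.56 for Lepr and -0.022 to 0.47 for Il7. For B young against A young they were -1.56 to 0.17 for Lepr, -0.0076 to 0.059 for Foxc1, -0.015 to 0.57 for Il7 and -0.14 to 0.69 for Tnfrsf11b. For C old against B old they were -0.013 to 0.37 for Vcam1 and -0.12 to 0.16 for Il7, and limma-trend gave -0.0016 for Il7. For C old against A young they were -0.25 to 0.28 (adjusted p = 0.0293 without A young replicate 1) for Tnfrsf11b and -0.021 to 0.051 for Foxc1, and Tnfrsf11b was 0.031 with limma-trend and 0.22 with scaling by total counts. Apart from the settings whose construction is named here, the cause was not tested.

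Replicate numbers are shared between groups in the labels, and whether they mark a shared animal or day is not given. Correlations of the deviations of same-numbered libraries were between -0.11 and 0.044 over 9 pairs. The 2 pairs within batch B have the same value by construction, since each of these groups holds 2 libraries. With a replicate block, 294 genes and 1 member passed for age, 729 genes and 4 members for B young against A young, where Lepr passed (-1.09, adjusted p = 0.026) and Tnfsf11 did not (0.78, adjusted p = 0.16), 9156 genes and 8 members for C old against B old, and 9275 genes and 5 members for C old against A young, where Il7 passed (0.85, adjusted p = 0.043). The difference of the RANKL to OPG ratio in batch B, 1.19 to 1.79 with a library left out, and the order of levels per kilobase without each library (0 positions changed) were examined after seeing the data. With the union of exons as the length, 2 positions in that order changed, as Tnfrsf11b and Vcam1 exchanged places. Depth limits Il7 and Lepr and the genes with 3 counts or fewer.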
